A study of Mus musculus with 18 samples.

Results

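The insulin-like growth factor (IGF) genes described here are the ligands Igf1 and Igf2, the receptors Igf1r and Igf2r and the binding proteins Igfbp2, Igfbp3, Igfbp4, Igfbp5, Igfbp6 and Igfbp7. They were taken by name, and they are 10 of the 22180 genes measured. Each was read by 1 probe set, so no gene had a second reading on the array.

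IGF1 and IGF2 are secreted growth factors that signal through the IGF1 receptor, a tyrosine kinase that acts through PI3K, AKT and the MAP kinases to favour growth and survival. The IGF2 receptor, also called the cation-independent mannose 6-phosphate receptor, carries IGF2 to the lysosome and so removes it. The IGF binding proteins (IGFBPs) are secreted carriers that hold the growth factors away from the receptor or deliver them to it, depending on the tissue and on the proteases that cleave them. Igf2 is expressed from the paternal allele and Igf2r from the maternal allele in most mouse tissues, and Igf2 is among the main growth factors of the embryo.

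The study measured total RNA of C57BL/6 mouse embryonic stem cells that were left to differentiate as embryoid bodies, which are free-floating cell aggregates. Thalidomide, a teratogen that binds the ubiquitin ligase component cereblon, was given at 0.25 mM from day 3 of the embryoid body stage, and 0.25% DMSO was the vehicle. The 18 Affymetrix arrays formed 3 thalidomide groups (24, 48 and 72 h) and 3 control groups of the same hours, with 3 biological replicates in each. All groups came from cells of the same strain with no transgene or mutation named. The design text describes the controls as unexposed, and their source names give hours after embryoid body formation, so the labels leave unclear whether they received the vehicle at the same stage. A re-analysis tag stands in 12 titles, those of every control and of the 24 h thalidomide samples, so all 6 arrays of 24 h carry it. The tag and the treatment therefore cannot be told apart at 48 and 72 h, and the tag and time cannot be told apart between 24 h and later thalidomide arrays.

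The 4 binding protein genes that the results turn on, Igfbp2, Igfbp3, Igfbp4 and Igfbp5, are shown by the 250 bases before the transcript start, since these genes moved in different directions over the course. All 10 genes had an entry in the RefSeq promoter table (GRCm38.p6). The windows are Igfbp2 at chr1:72824230-72824479 on the plus strand, Igfbp3 at chr11:7213924-7214173 on the minus strand, Igfbp4 at chr11:99040994-99041243 on the plus strand and Igfbp5 at chr1:72874866-72875115 on the minus strand. Capitals mark the letters TATAAA (the core of a TATA box), the related letters TTTAAA and the letters GGGCGG (a GC box), each searched on both strands. The table holds a second Igfbp2 start, with the window chr1:72825137-72825386 on the plus strand, 0 copies of GGGCGG and a CpG count of 11, and the first of the 2 is shown. The gene records of Igfbp3 and Igfbp4 also reach further upstream than these starts.
Igfbp2: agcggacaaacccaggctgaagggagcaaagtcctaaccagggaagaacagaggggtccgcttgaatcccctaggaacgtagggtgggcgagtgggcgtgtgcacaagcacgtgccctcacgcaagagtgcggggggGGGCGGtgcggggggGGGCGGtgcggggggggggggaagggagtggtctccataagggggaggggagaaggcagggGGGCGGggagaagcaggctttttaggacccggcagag
Igfbp3: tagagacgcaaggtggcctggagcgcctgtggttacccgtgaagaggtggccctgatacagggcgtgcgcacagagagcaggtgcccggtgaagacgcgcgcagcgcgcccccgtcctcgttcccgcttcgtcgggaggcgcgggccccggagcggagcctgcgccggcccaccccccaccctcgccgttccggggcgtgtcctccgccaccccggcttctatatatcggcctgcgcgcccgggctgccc
Igfbp4: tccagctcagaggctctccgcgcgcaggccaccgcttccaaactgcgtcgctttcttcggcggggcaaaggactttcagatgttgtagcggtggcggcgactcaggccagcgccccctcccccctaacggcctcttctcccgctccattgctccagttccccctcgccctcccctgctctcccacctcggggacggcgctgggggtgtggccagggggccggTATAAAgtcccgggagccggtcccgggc
Igfbp5: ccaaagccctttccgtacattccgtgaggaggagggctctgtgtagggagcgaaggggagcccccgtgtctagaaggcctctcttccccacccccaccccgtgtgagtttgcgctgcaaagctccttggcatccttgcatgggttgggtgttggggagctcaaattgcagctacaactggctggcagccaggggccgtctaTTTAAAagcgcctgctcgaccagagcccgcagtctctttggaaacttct
The 4 windows differ in composition. Igfbp4 holds 1 TATAAA that begins 28 bases before the start, and Igfbp5 holds 1 TTTAAA that begins 49 bases before it. The Igfbp2 window shown holds 3 copies of GGGCGG, and the Igfbp3 window holds none of these letters. Near its end the Igfbp3 window does hold the letters tatatat, which were not searched, so a TATA-like element there is not excluded. The CpG count was 32 for Igfbp3, 22 for Igfbp4, 14 for the Igfbp2 window shown and 10 for Igfbp5, against a median of 6 over all 32851 windows of that length. TATAAA occurred in 12.4%, TTTAAA in 12.1% and GGGCGG in 32.7% of those windows. The letters searched were chosen with these sequences in view, and a match is a description of the sequence.

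The array values are log2 signals, so a difference of 1 is a doubling of signal, and levels are compared only between arrays for the same gene. Replicates of a group correlated at 0.992 to 0.996 over all genes. The third thalidomide array of 72 h stood apart from the other two: its summed cardiac marker level was 10.33 against 11.52 and 11.38, while the controls read 12.05 to 12.08. Its endothelial and mesenchymal marker sums were also the lowest of the 6 arrays at 72 h. The labels name the cell type as embryonic stem cell. Of 9 pluripotency markers, 5 fell and 1 rose by 72 h in the thalidomide course, and 6 fell and 1 rose in the control course. Over all genes 10.6% fell and 14.4% rose under thalidomide, and 14.3% fell and 13.1% rose in the controls. In bulk RNA, fewer cells of a type and less RNA per cell cannot be told apart.

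The largest changes of the IGF genes were between times. Between 24 and 72 h, 6 of the 10 genes rose and 2 fell under thalidomide, and the same 6 rose and the same 2 fell in the controls. Igfbp5 and Igf2 rose most, followed by Igf2r, Igfbp4, Igf1r and Igf1, while Igfbp2 and Igfbp3 fell. Igfbp6 and Igfbp7 did not pass the test in either course. The calls are limma contrasts with Benjamini-Hochberg adjustment over all genes at 0.05. The background was high: 25.1% of all genes passed in the thalidomide course (14.4% higher and 10.6% lower), and 27.5% in the control course (13.1% higher and 14.3% lower). The median change of the 10 genes was 0.67 under thalidomide and 0.73 in the controls, against medians of -0.03 and -0.04 over all genes. Of the 10 genes, 7 had a mean signal above the 75th percentile of all genes, while Igf1, Igfbp6 and Igfbp7 lay near the median.

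**Figure D1:**
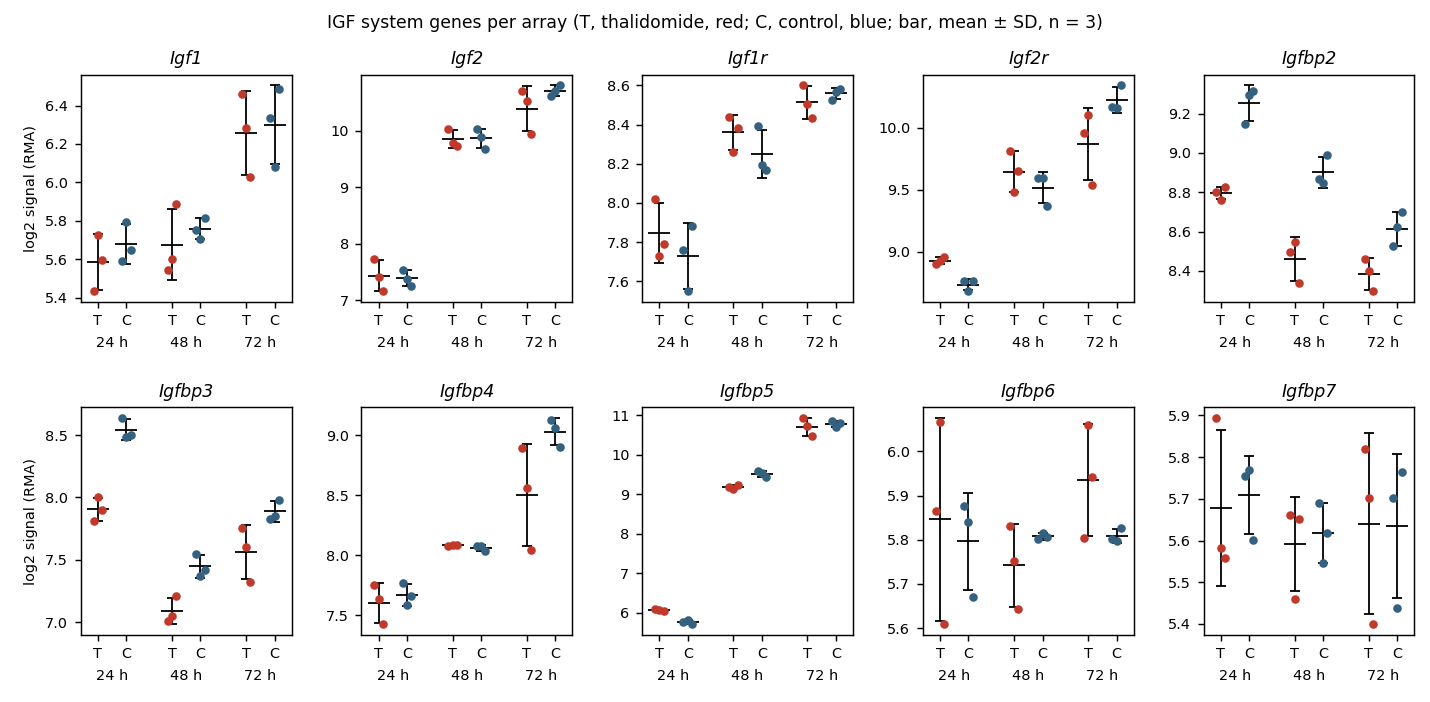
Log2 signal of the 10 IGF genes on each array at 24, 48 and 72 h, with thalidomide arrays (T, red) left of control arrays (C, blue) and bars for the mean ± SD of 3 arrays. The y axes differ between genes. Igfbp5 lay between 6.05 and 6.10 on thalidomide arrays and between 5.71 and 5.82 on control arrays at 24 h, and above 10 on every array at 72 h.

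Among the ligands, Igf2 rose steeply in both courses. On thalidomide arrays it read 7.73, 7.41 and 7.17 at 24 h, 10.04, 9.78 and 9.73 at 48 h and 10.71, 10.53 and 9.94 at 72 h. On control arrays it read 7.53, 7.38 and 7.24 at 24 h, 10.03, 9.89 and 9.69 at 48 h and 10.62, 10.70 and 10.81 at 72 h. Every array of 48 h lay above every array of 24 h, so most of the rise had happened by 48 h. From 24 to 72 h the rise was 2.96 ± 0.17 under thalidomide (SE, 7.76-fold, limma adjusted p = 4.87e-09) and 3.33 ± 0.17 in the controls (10.03-fold, limma adjusted p = 8.01e-10). Between 48 and 72 h the controls rose by 0.85 (limma adjusted p = 0.00534), and the thalidomide arrays gave 0.54 (limma adjusted p = 0.0531). Without the third thalidomide array of 72 h that step was 0.77 and passed (limma adjusted p = 0.0048).

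Igf1, the ligand of postnatal growth, rose late. It read 5.43, 5.72 and 5.60 at 24 h, 5.54, 5.60 and 5.89 at 48 h and 6.46, 6.29 and 6.03 at 72 h on thalidomide arrays. On control arrays it read 5.59, 5.79 and 5.65 at 24 h, 5.75, 5.71 and 5.82 at 48 h and 6.34, 6.08 and 6.49 at 72 h. The arrays of 24 and 48 h overlapped in both courses, and every array of 72 h lay above them. Whether the Igf1 signals of 24 and 48 h exceed background was not assessed, and the timing of the rise rests on them. The rise between 48 and 72 h was 0.58 ± 0.12 under thalidomide (SE, limma adjusted p = 0.00733) and 0.54 ± 0.12 in the controls (limma adjusted p = 0.0134). The control step did not pass without control replicate 2 of 48 h or control replicate 3 of 72 h, and the thalidomide step did not pass when those 2 groups were fitted alone.

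Both receptors rose in both courses. Igf2r read 8.90, 8.93 and 8.96 at 24 h, 9.81, 9.48 and 9.65 at 48 h and 9.96, 10.10 and 9.54 at 72 h on thalidomide arrays. On control arrays it read 8.76, 8.68 and 8.76 at 24 h, 9.59, 9.59 and 9.37 at 48 h and 10.16, 10.16 and 10.34 at 72 h. The control arrays climbed at both steps without overlap, whereas the thalidomide arrays of 48 and 72 h overlapped. By 72 h the rise was 0.94 ± 0.12 under thalidomide (SE, 1.92-fold, limma adjusted p = 1.84e-05) and 1.49 ± 0.12 in the controls (2.80-fold, limma adjusted p = 9.06e-08). Igf1r, the signalling receptor, ranged from 7.73 to 8.02 at 24 h, 8.26 to 8.44 at 48 h and 8.44 to 8.60 at 72 h on thalidomide arrays. On control arrays it ranged from 7.55 to 7.88 at 24 h, 8.17 to 8.39 at 48 h and 8.53 to 8.58 at 72 h. In both courses every array of 48 h lay above those of 24 h. Its rise by 72 h was 0.67 ± 0.10 under thalidomide (SE, limma adjusted p = 6.3e-05) and 0.83 ± 0.10 in the controls (limma adjusted p = 5.1e-06).

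Igfbp5, a secreted binding protein with an affinity for extracellular matrix, had the largest rise of the 10 genes in both courses. It read 6.10, 6.07 and 6.05 at 24 h, 9.18, 9.12 and 9.23 at 48 h and 10.92, 10.73 and 10.47 at 72 h on thalidomide arrays. On control arrays it read 5.76, 5.82 and 5.71 at 24 h, 9.58, 9.54 and 9.44 at 48 h and 10.84, 10.70 and 10.79 at 72 h. No array of one time overlapped any array of another within a course. The 72 h signal was 24.8-fold that of 24 h under thalidomide (log2 4.63 ± 0.09, SE, limma adjusted p = 2.76e-15) and 32.4-fold in the controls (log2 5.02 ± 0.09, limma adjusted p = 7.58e-16). The first step, between 24 and 48 h, took 3.10 of this under thalidomide and 3.76 in the controls. Whether the 24 h signals exceed background was not assessed, and the fold values rest on them. Its promoter window is the one with TTTAAA above.

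Igfbp4, a binding protein that restrains IGF action until the protease PAPP-A cleaves it, rose in both courses. It read 7.75, 7.63 and 7.43 at 24 h, 8.08, 8.08 and 8.09 at 48 h and 8.90, 8.56 and 8.05 at 72 h on thalidomide arrays. On control arrays it read 7.77, 7.59 and 7.66 at 24 h, 8.08, 8.08 and 8.03 at 48 h and 9.13, 9.06 and 8.90 at 72 h. The third thalidomide array of 72 h was still at the level of 48 h, and the control arrays of 72 h all lay above it. The rise by 72 h was 0.90 ± 0.15 under thalidomide (SE, limma adjusted p = 2.19e-04) and 1.36 ± 0.15 in the controls (limma adjusted p = 2.33e-06).

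Igfbp2 and Igfbp3 went the other way. Igfbp2, a binding protein abundant in embryonic tissues, was lower at 72 h than at 24 h by a log2 change of -0.41 ± 0.08 under thalidomide (SE, limma adjusted p = 7.29e-04) and of -0.64 ± 0.08 in the controls (limma adjusted p = 7.74e-06). Igfbp3, the main carrier of IGFs in blood, was lowest at 48 h in both courses. Its change between 24 and 48 h was -0.81 ± 0.10 under thalidomide (SE, limma adjusted p = 4.4e-05) and -1.09 ± 0.10 in the controls (limma adjusted p = 1.26e-06). Between 48 and 72 h it rose by 0.47 under thalidomide (limma adjusted p = 0.00627) and by 0.44 in the controls (limma adjusted p = 0.0109). The control step was lost without control replicate 2 of 48 h (limma adjusted p = 0.0522) or replicate 3 of 72 h (limma adjusted p = 0.0611), and the thalidomide step when those 2 groups were fitted alone (limma adjusted p = 0.0669). Over the whole interval the change was -0.34 under thalidomide (limma adjusted p = 0.0161) and -0.65 in the controls (limma adjusted p = 8.36e-05). The thalidomide call over the whole interval was lost without thalidomide replicate 2 of 24 h or replicate 3 of 72 h, and when those 2 groups were fitted alone.

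The 2 remaining binding proteins stayed near the middle of the array's signal range. Igfbp6, which prefers IGF2 over IGF1, lay between 5.61 and 6.07 on thalidomide arrays and between 5.67 and 5.88 on control arrays over all times. Igfbp7, a matrix protein that binds IGFs weakly, lay between 5.40 and 5.89 on thalidomide arrays and between 5.44 and 5.77 on control arrays. The arrays of different times overlapped for both genes. The arrays' detection calls were not used here, so whether these 2 signals exceed background was not assessed.

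By single steps, 7 of the 10 genes passed between 24 and 48 h under thalidomide, with 10.1% of all genes, and 6 passed in the controls, with 13.6% of all genes. The additional gene under thalidomide was Igfbp4 (0.48 ± 0.15, SE, limma adjusted p = 0.046), which read 0.39 in the controls (limma adjusted p = 0.0916). Its thalidomide call held in 6 of 14 settings, and the Igfbp2 call of the controls between 48 and 72 h, described next, in 7 of 14. Between 48 and 72 h, 3 genes passed under thalidomide (Igfbp5, Igf1 and Igfbp3), with 10.2% of all genes. In the controls 7 passed over that step, with 6.53% of all genes: the same 3 and Igf2, Igf2r, Igfbp4 and Igfbp2. Without the third thalidomide array of 72 h, 6 genes passed in that step under thalidomide. Without control replicate 2 of 48 h, 4 passed in the controls.

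**Figure D2:**
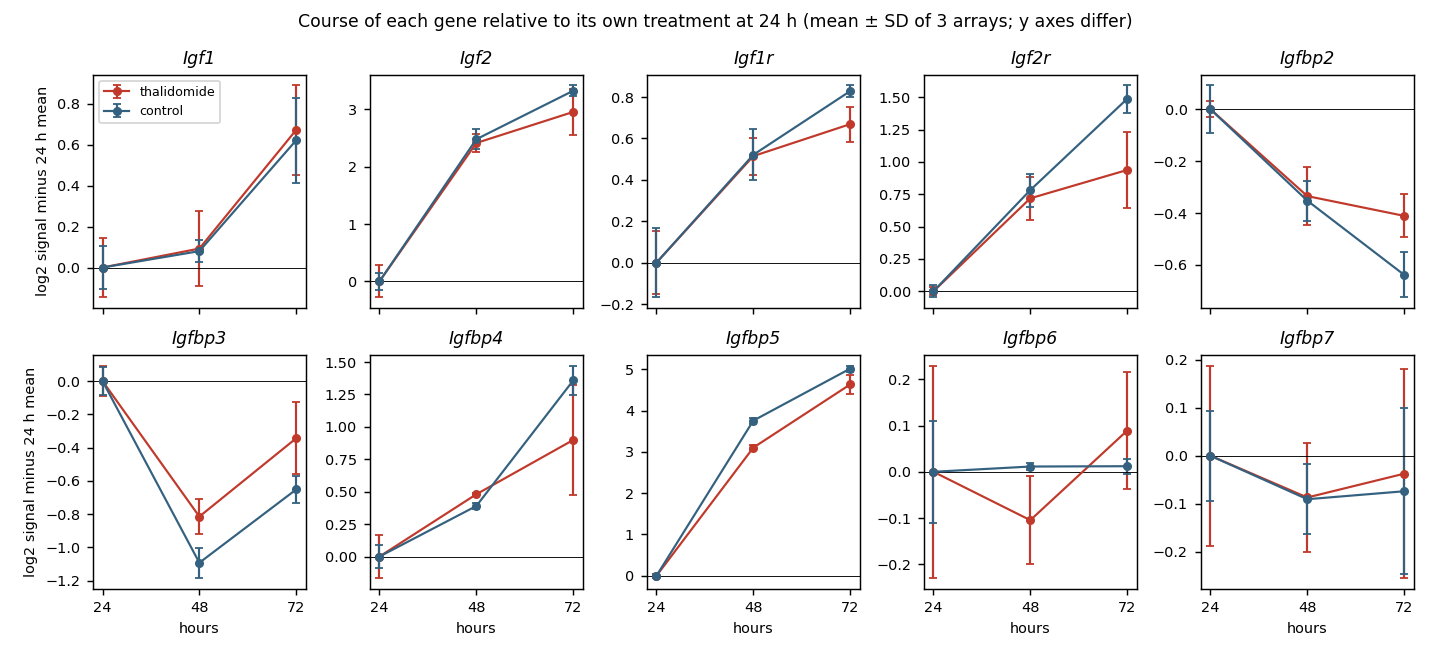
Mean log2 signal of each gene relative to the 24 h mean of its own treatment, with thalidomide in red, control in blue and error bars for the SD of 3 arrays. The y axes differ. The curves of Igf2 and Igf1r ran together until 48 h, and those of Igf2r and Igfbp4 were apart at 72 h, where the thalidomide SD was large.

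Thalidomide was set against control at each time to ask which genes the drug changed. At 24 h, 3 of the 10 genes passed: Igfbp3 and Igfbp2 were lower and Igfbp5 was higher. At 48 h, Igfbp2, Igfbp3 and Igfbp5 were all lower. At 72 h none passed in limma at an adjusted p of 0.05, and 4 had an unadjusted p under 0.05. Averaged over the 3 times, Igfbp2 and Igfbp3 were lower and no gene was higher. The ligands and receptors passed at no time.

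The background of these counts differed between the times. At 24 h 6.86% of genes passed (1.42% higher and 5.43% lower), at 48 h 6.08% (1.85% higher and 4.23% lower) and at 72 h 0.00902%, all of them lower (0% higher and 0.00902% lower). For the mean of the 3 times 13% passed, 3.93% higher and 9.1% lower. At 24 and 48 h the 3 calls in 10 genes stood above the share over all genes, but the genes were chosen with earlier results of these data known, so that share was not tested. The median difference of the 10 genes was 0.01 at 24 h, -0.05 at 48 h and -0.15 at 72 h, against medians between -0.01 and 0.01 over all genes. Genes above the 75th percentile of mean signal over all arrays had a median difference of -0.08 at 24 h and -0.06 at 48 h. Igfbp2, Igfbp3 and Igfbp5 are among them by that mean, but Igfbp5 was not bright at 24 h. There it averaged 6.07 on thalidomide and 5.76 on control arrays, and its difference was upward.

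**Figure D3:**
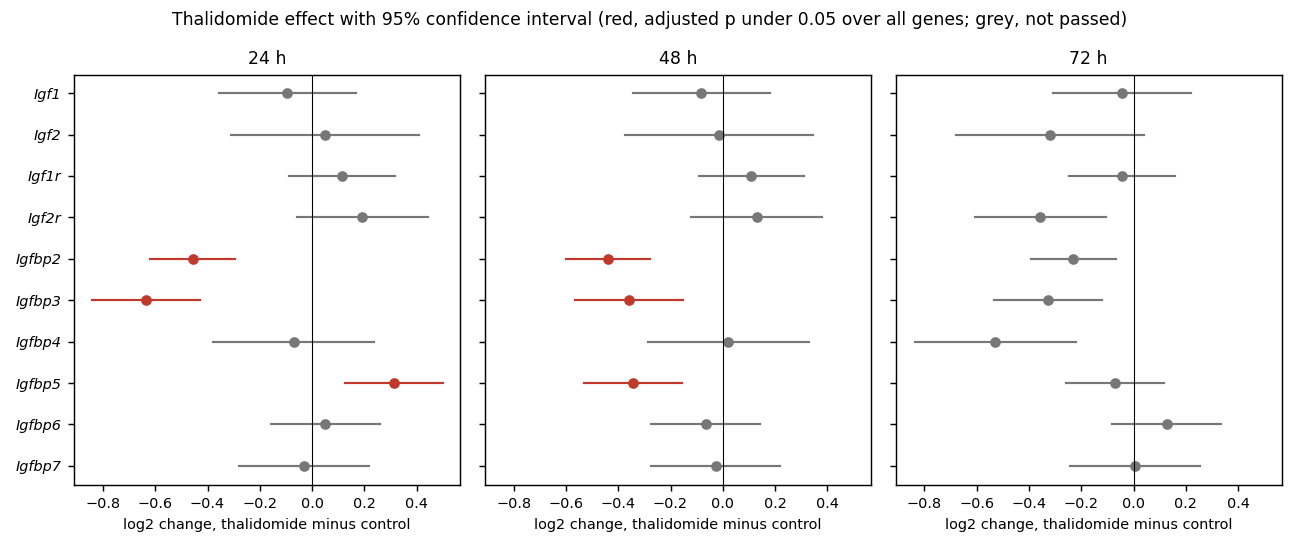
Thalidomide minus control difference in log2 signal for each gene at 24, 48 and 72 h, with the 95% confidence interval. Red marks an adjusted p under 0.05 over all genes. Igfbp2 and Igfbp3 lay left of 0 at each time, and Igfbp5 changed side between 24 and 48 h.

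Igfbp2 was lower under thalidomide on every array at each time. At 24 h it read 8.80, 8.76 and 8.82 on thalidomide arrays, against 9.15, 9.30 and 9.32 on control arrays. At 48 h it read 8.50, 8.55 and 8.34 on thalidomide arrays, against 8.87, 8.85 and 8.99 on control arrays. At 72 h it read 8.46, 8.40 and 8.30 on thalidomide arrays, against 8.53, 8.62 and 8.70 on control arrays. The groups did not overlap at any time, and the thalidomide mean of 24 h, 8.80, already lay below the control mean of 48 h, 8.90. The difference was -0.46 ± 0.08 at 24 h (SE, 1.37-fold lower, limma adjusted p = 0.00271) and -0.44 ± 0.08 at 48 h (1.36-fold lower, limma adjusted p = 0.00451). At 72 h it was -0.23 ± 0.08 (limma adjusted p = 0.328), with a 95% interval of -0.39 to -0.07. The mean over the 3 times was -0.38 ± 0.04 (SE, limma adjusted p = 1.17e-04). The calls of 24 and 48 h did not pass when the 2 groups of each time were fitted alone.

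Igfbp3 showed the largest difference of the 10 genes at 24 h. It read 7.82, 8.00 and 7.90 on thalidomide arrays, against 8.64, 8.49 and 8.50 on control arrays. At 48 h it read 7.01, 7.05 and 7.21 on thalidomide arrays, against 7.55, 7.37 and 7.42 on control arrays. At 72 h it read 7.75, 7.60 and 7.33 on thalidomide arrays, against 7.83, 7.85 and 7.98 on control arrays. The groups did not overlap at any time, while both courses dipped at 48 h. The difference was -0.64 ± 0.10 at 24 h (SE, 1.55-fold lower, limma adjusted p = 0.00177), and it passed in all 14 alternative settings. It was -0.36 ± 0.10 at 48 h (1.28-fold lower, limma adjusted p = 0.0408), where the call held in 4 of 14 settings and was lost when any 1 array was left out. With the replicate number as a block the 48 h value had a limma adjusted p of 0.0584. At 72 h the difference was -0.33 ± 0.10 (limma adjusted p = 0.275), with a 95% interval of -0.54 to -0.12 (-0.21 without the third thalidomide array), and over the 3 times it was -0.44 ± 0.06 (SE, limma adjusted p = 2.26e-04).

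Other measures moved with these 2 genes at 24 h. The summed level of 9 pluripotency markers was 11.21 to 11.40 on thalidomide arrays, against 11.74 to 11.94 on control arrays, with Tdgf1 the only marker that passed (-0.75 ± 0.21, SE, limma adjusted p = 0.0432). The median change of the 9 markers was 0.05, of the opposite sign to the summed level, and the range was -0.75 to 0.18. The summed level of 8 primitive streak markers was 11.47 to 11.59 on thalidomide arrays, against 11.87 to 11.94 on control arrays. All 8 were lower, with a median change of -0.35 and a range of -0.50 to -0.13. Fgf8 was the only one of them that passed, where 6.86% of all genes passed. Neither list had a gene that passed at 48 h, and their sums overlapped there. The summed level of 6 neural ectoderm markers was 9.16 to 9.34 on thalidomide arrays, against 9.40 to 9.54 on control arrays, at 24 h, and 9.09 to 9.12 against 9.32 to 9.47 at 48 h. Of these 6, none passed at 24 h, and Otx2 passed at 48 h as lower under thalidomide (-0.50 ± 0.12, SE, limma adjusted p = 0.0258). The median change of the 6 was -0.13 at 24 h (range -0.33 to 0.02) and -0.06 at 48 h (range -0.77 to 0.22), so not all of them were lower. At 48 h 1 of 9 cardiac markers was lower (Myl7, -1.09) and 1 of 9 mesenchymal markers was higher (Col1a1, 0.44), where 6.08% of all genes passed. These lists did not move as a whole: the cardiac median was 0.005 (range -1.09 to 0.60) and the mesenchymal median 0.04 (range -0.12 to 0.44). The part of these lists in the Igfbp2 and Igfbp3 differences was not tested. With cyclic loess normalization added, which evens out differences by brightness, the 24 h values were -0.37 for Igfbp2 and -0.54 for Igfbp3, and both passed.

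Igfbp5 was higher under thalidomide at 24 h and lower at 48 h. At 24 h it read 6.10, 6.07 and 6.05 on thalidomide arrays, against 5.76, 5.82 and 5.71 on control arrays, a difference of 0.31 ± 0.09 (SE, 1.24-fold higher, limma adjusted p = 0.0438). Whether these 24 h signals exceed background was not assessed. At 48 h it read 9.18, 9.12 and 9.23 on thalidomide arrays, against 9.58, 9.54 and 9.44 on control arrays, a difference of -0.34 ± 0.09 (1.27-fold lower, limma adjusted p = 0.0324). The groups were apart at both times and overlapped at 72 h, where the difference was -0.07 (limma adjusted p = 0.894, 95% interval -0.26 to 0.12). Both calls were lost when any 1 array of their time was left out, and held in 6 of 14 settings at 24 h and 5 of 14 at 48 h. Set against the time course, in which the signal rose by more than 3 log2 units between these times, both differences were small.

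At 72 h the third thalidomide array weighed on the values. Igfbp4 read 8.90, 8.56 and 8.05 on thalidomide arrays, against 9.13, 9.06 and 8.90 on control arrays, a difference of -0.53 ± 0.15 (SE, limma adjusted p = 0.227, 95% interval -0.84 to -0.22). Without the third thalidomide array it was -0.30, and without the first it was -0.73 and passed (limma adjusted p = 0.0308). Igf2r read 9.96, 10.10 and 9.54 on thalidomide arrays, against 10.16, 10.16 and 10.34 on control arrays, a difference of -0.36 ± 0.12 (SE, limma adjusted p = 0.328, 95% interval -0.61 to -0.11). Without the third thalidomide array it was -0.19. Igf2 differed by -0.32 ± 0.17 (SE, limma adjusted p = 0.63, 95% interval -0.68 to 0.04), and by -0.09 without that array. Of the 3 thalidomide arrays of 72 h, this one had the lowest signal for 9 of the 10 genes, all but Igfbp6.

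Cardiac, mesenchymal and endothelial markers moved with these values at 72 h. The 9 cardiac markers summed to 10.33 to 11.52 on thalidomide arrays, against 12.05 to 12.08 on control arrays, with Ryr2 lower past the threshold and a median difference of -0.84. Over all genes 0.00902% passed at 72 h, so a marker that did not pass says little there. The 9 mesenchymal markers summed to 11.42 to 12.09 on thalidomide arrays, against 12.32 to 12.58 on control arrays. None passed, but all were lower, with a median of -0.29 and a range of -1.49 to -0.09. The 7 endothelial markers summed to 9.34 to 10.42 on thalidomide arrays, against 10.58 to 10.81 on control arrays. None passed, but all were lower, with a median of -0.47 and a range of -1.09 to -0.13. The neural ectoderm sum ran the other way, at 9.49 to 10.16 on thalidomide arrays against 9.02 to 9.46 on control arrays. None of its 6 markers passed, but all were higher, with a median of 0.43 and a range of 0.29 to 0.94. Sums of extraembryonic endoderm and primitive blood markers overlapped between the groups at 72 h, and none of their 10 and 6 markers passed. The part of these marker lists in the 72 h values of Igfbp4, Igf2r and Igf2 was not tested.

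Igf1, Igf1r, Igfbp6 and Igfbp7 had differences between -0.09 and 0.13 over the 12 values of 4 genes and 3 times. Their 95% intervals lay within -0.36 and 0.34, and the lowest limma adjusted p was 0.525. Thalidomide and control arrays overlapped for these 4 genes at each time. Igf2 and Igfbp4 at 24 and 48 h gave values between -0.07 and 0.05, also with overlapping arrays. Igf2r at 24 h read higher on every thalidomide array than on any control array, by 0.19 ± 0.12 (SE), and did not pass (limma adjusted p = 0.378).

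Whether the thalidomide difference itself changed with time was tested as an interaction. None of the 10 genes passed between 24 and 48 h, 48 and 72 h, or 24 and 72 h, and 1, 3 and 4 of them had an unadjusted p under 0.05. Of all genes, 0%, 0.0947% and 0.496% passed in these 3 tests. The re-analysis tag separates the treatments at 48 and 72 h but not at 24 h. A change of the difference from 24 h to a later time therefore cannot be told apart from the tag. The change for Igfbp5 between 24 and 48 h was -0.65, with a 95% interval of -0.92 to -0.39 and a limma adjusted p of 0.201. For Igf2r between 24 and 72 h it was -0.55, with a 95% interval of -0.90 to -0.20 and a limma adjusted p of 0.133. The decline of the Igfbp2 difference between 24 and 72 h, 0.23 with a 95% interval of -0.0009 to 0.46, did not pass either (limma adjusted p = 0.352).

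In the rest of the insulin and IGF pathway, as over all genes, more genes passed over the course than between treatments at any time. Among 8 measured genes for other ligands, receptors and binding proteins of the family, none passed at any exposure time. Insr, the insulin receptor, was the only one that rose over the course, by 0.37 under thalidomide and 0.64 in the controls. Of 10 binding protein proteases and their inhibitors, none passed at any exposure time. Over the course 5 rose and 1 fell under thalidomide, and 5 rose and 2 fell in the controls, where over all genes 14.4% rose and 10.6% fell under thalidomide and 13.1% rose and 14.3% fell in the controls. Adam12, a metalloprotease that can cleave IGFBPs, rose by 1.05 under thalidomide and 1.94 in the controls, and Adamts1, a matrix protease, by 1.04 and 1.51 in the same order. Htra1, a secreted serine protease, fell by 0.42 under thalidomide and by 0.74 in the controls. Pappa, the protease of IGFBP4, rose by 0.67 under thalidomide and by 0.50 in the controls, and was higher under thalidomide by 0.23 ± 0.06 over the mean of the 3 times (SE, limma adjusted p = 0.0279), a call lost without any of 4 single arrays. It was the only one of the 10 that passed for that mean, where 13% of all genes passed.

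All 7 measured genes on the list of imprinted partners and Igf2 mRNA binders rose in both courses, as did 14.4% of all genes under thalidomide and 13.1% in the controls, with a list median of 1.16 under thalidomide and 1.70 in the controls. Cdkn1c, an imprinted inhibitor of the cell cycle, rose by 2.23 under thalidomide and 2.59 in the controls. Plagl1, an imprinted zinc finger factor, rose by 1.88 under thalidomide and 2.35 in the controls. Mest rose by 1.82 and Dlk1, a membrane ligand related to Notch ligands, by 1.06 under thalidomide, against 1.70 and 1.82 in the controls. None of the 7 passed at any exposure time, and Cdkn1c was lower under thalidomide over the mean of the 3 times by -0.32 ± 0.09 (SE, limma adjusted p = 0.0333), a call that held in 14 of 25 settings. No other gene of the list passed for that mean, where 13% of all genes passed.

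Of 27 measured genes of receptor signal transduction, 8 rose and 4 fell under thalidomide over the course, and 9 rose and 3 fell in the controls. Over all genes 25.1% passed under thalidomide (14.4% higher and 10.6% lower) and 27.5% in the controls (13.1% higher and 14.3% lower). Akt1, a kinase downstream of the receptor, rose by 0.73 under thalidomide and 0.68 in the controls. Irs1, the adaptor that couples the receptor to PI3K, rose by 0.67 under thalidomide and 0.85 in the controls. Pik3r1, the regulatory subunit of PI3K, rose by 0.50 under thalidomide and 0.68 in the controls, while Foxo3, a transcription factor that AKT inhibits, fell by 0.53 under thalidomide and by 0.60 in the controls. Under thalidomide against control, Rheb, the GTPase that activates mTORC1, was lower at 24 h (-0.35 ± 0.07, SE, limma adjusted p = 0.00561). Foxo4, a further AKT target, was higher at 24 h (0.26 ± 0.08, SE, limma adjusted p = 0.0455) and at 48 h (0.44 ± 0.08, limma adjusted p = 0.0044), and no gene of the list passed at 72 h. The Foxo4 call of 24 h held in 7 of 14 settings. With 2 of the 27 genes at 24 h and 1 at 48 h, the calls were near or below the shares over all genes, 6.86% and 6.08%. Over the mean of the 3 times the same 2 genes passed, Foxo4 at 0.19 and Rheb at -0.19, where 13% of all genes passed. Foxo4 was not higher throughout: at 72 h its difference had the opposite sign, within a range of -0.19 to 0.11 for the 27 genes.

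**Figure D4:**
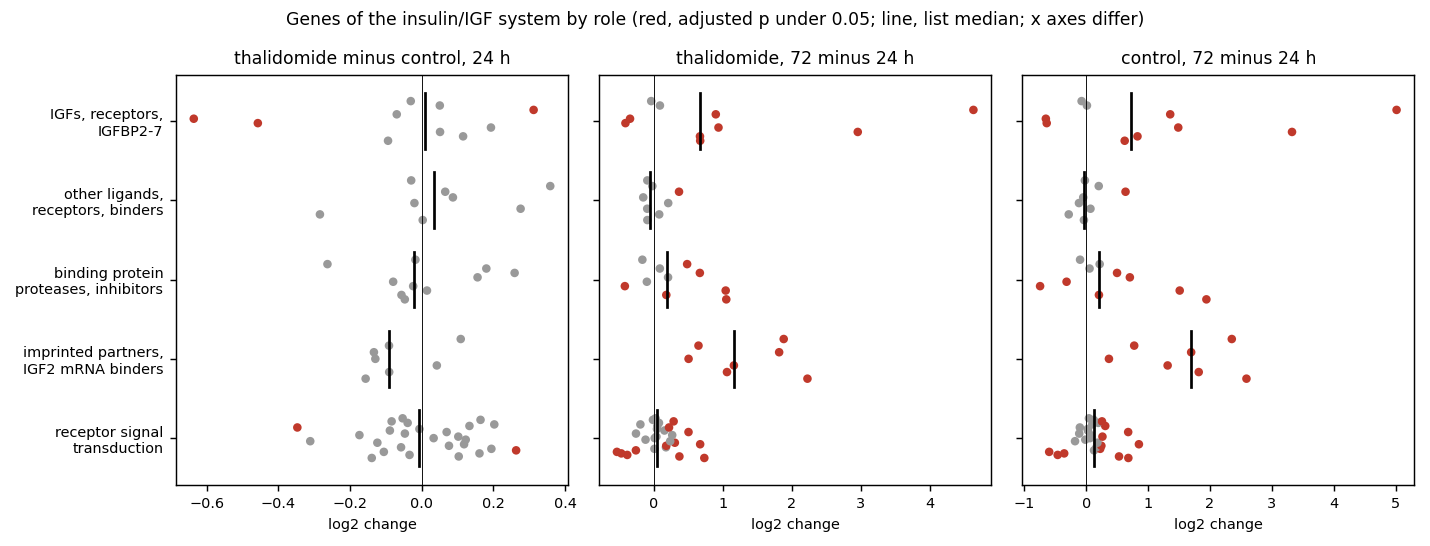
Log2 change of each measured gene in the IGF group and 4 related gene lists, for thalidomide minus control at 24 h (left), 72 minus 24 h under thalidomide (middle) and 72 minus 24 h in controls (right). Red points passed at an adjusted p under 0.05, black lines are list medians, and the x axes differ. The imprinted partner list lay right of 0 in both courses, with medians of 1.16 and 1.70.

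Across the 18 arrays the IGF genes fell into those that followed the rise of Igf2 and those that did not. Igf2 correlated with Igfbp5 at 0.988, with Igf1r at 0.956, with Igf2r at 0.954 and with Igfbp4 at 0.858 (Pearson, over 18 arrays of 6 groups, so the points share the time course). Igfbp2 and Igfbp3 correlated with each other at 0.721 and with Igf2 at -0.692 and -0.604. Igfbp2 and Igfbp5 are neighbouring protein-coding genes on chromosome 1, on opposite strands, and correlated at -0.717. Igfbp6 and Igfbp7 correlated with the other genes at between -0.191 and 0.370.

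Of the 764 genes whose group means spanned at least 1 log2 unit, Fbn2 (fibrillin, 0.994), Id2 (0.993) and Meis1 (0.991) followed Igf2 most closely over the 18 arrays. Igfbp5 was followed by Id2 (0.994), Grb10 (0.990) and Fstl1 (0.989), and Grb10 is an imprinted adaptor of the insulin and IGF1 receptors. The nearest to Igf2r were Fras1 (0.991), Vcan (0.983) and Cdh6 (0.980). For Igfbp4 they were Npr3 (0.975), Acta2 (0.973) and Itga9 (0.971), where Acta2, smooth muscle actin, is also among the mesenchymal markers. Igfbp3, with its dip at 48 h, had looser matches in Lrp11 (0.913), Ppif (0.893) and Eng (0.865). These Pearson correlations describe the same 18 arrays and the same time course.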

How the data were processed

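Total RNA of 18 embryoid body samples was hybridised to Affymetrix arrays, and precision is limited by the 3 arrays per group. Each deposited value is a log2 signal of a probe set, and the submitters' processing notes name RMA (robust multi-array average) and version 1.3 of Affymetrix Expression Console. No source used here names a genome build. Array medians lay between 5.37 and 5.46, so the signals were used as deposited.

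Of 41345 probe sets, 23521 carried 1 gene symbol in the platform annotation, 1814 carried several and were not named, and 16010 were not listed. A gene with several probe sets (1082 of 22180 genes) was read at the probe set with the highest mean signal. The 10 IGF genes had 1 each. Groups were taken from titles. limma 3.58.1 in R 4.3.3 fitted 6 group means (12 residual and 4.35 prior degrees of freedom), and p-values were adjusted over all genes by Benjamini-Hochberg with a threshold of 0.05. The fit was tested on simulated data. An exact permutation test of 3 against 3 arrays cannot go below 0.1, so none is given. Intervals are at 95%. Sums of markers are log2 of summed linear signals.

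The IGF genes, the pathway and marker lists and the promoter motifs were chosen with earlier results of these data known. Besides the 10 genes, the text names up to 3 called genes with the largest change per list and contrast, and the 3 best correlated genes of each IGF gene whose group means span at least 1 log2 unit. Predicted loci and the 10 genes themselves were not among the candidates for these correlations. Alternatives were the probe set rule, probe sets tested singly, a filter at the median signal, cyclic loess, trended robust eBayes, array weights, a replicate block, fits of only the compared groups, and each array left out. The labels call the arrays biological replicates and do not say whether these were separate cultures, so p-values measure the spread between these samples.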

Additional observations from a re-analysis of the deposited data

Results flagged for a closer look

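Igfbp5 lay on opposite sides of the control at 24 and 48 h. Every thalidomide array lay above every control array at 24 h and below every control array at 48 h. The thalidomide minus control difference was 0.31 at 24 h and -0.34 at 48 h, a change of -0.65 (95% interval -0.92 to -0.39). The limma test of that change had an unadjusted p of 7.91e-05 and an adjusted p of 0.201 over all genes, and none of 20 alternative settings brought it under the threshold. The re-analysis tag separates the treatments at 48 h but not at 24 h, so the change cannot be told apart from the tag.

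Igf2r lay on opposite sides of the control at 24 and 72 h. Every thalidomide array lay above every control array at 24 h and below every control array at 72 h. The difference was 0.19 at 24 h and -0.36 at 72 h, a change of -0.55 (95% interval -0.90 to -0.20). The limma test of that change had an adjusted p of 0.133, and without the third thalidomide array of 72 h the change was -0.39. None of the 20 alternative settings passed. The re-analysis tag separates the treatments at 72 h but not at 24 h, so this change cannot be told apart from the tag either.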

How the results depend on the processing

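Over 107 single values and 1606 alternative values, 1491 kept direction and call, 95 lost the call, 18 gained it and 2 turned direction. The turned values were Igf1 under thalidomide between 24 and 48 h (-0.013 without thalidomide replicate 3 of 48 h, and up to 0.16 without other arrays) and Igfbp5 at 72 h (0.046 without thalidomide replicate 3 of 72 h, and down to -0.18 without other arrays), neither of which had passed. The lower Igfbp2 and Igfbp3 means over the 3 times passed in 25 of 25 settings. Against 3 calls at 24 h, 1 gene passed when only the compared groups were fitted. Against 3 at 48 h, 1 passed with every probe set tested and with cyclic loess, 0 with only the compared groups, and 1 when any array was left out. At 72 h, leaving out arrays gave 0 to 1. Between 48 and 72 h, 5 genes passed under thalidomide above the median signal and 5 with the replicate block, against 3, with 1 when only the compared groups were fitted and 3 to 6 when an array was left out. Leaving out arrays gave 4 to 7 in the controls over that step. Correlations of same-numbered thalidomide and control arrays of the same time lay between -0.14 and 0.12, after group means were removed. With 3 arrays a group these values cannot exclude a pairing, and pairing of replicate numbers across times was not tested. The block took the Igfbp3 call at 48 h (limma adjusted p = 0.0584) and gave 2 calls there. Fits of only the compared groups and fits without an array have fewer degrees of freedom, and the cause of the other losses was not tested. The alternatives for the other pathway genes and for Airn, Igf2os and Mir483 were added after seeing the data. With 3 arrays a group, a difference whose interval holds 0 could not be told from 0.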

Other observations

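Other transcripts at the Igf2 and Igf2r loci were also read by the array, and they were singled out after their values were seen. No source used here says whether the probes tell the strands apart. Airn, the antisense RNA known to silence the paternal Igf2r allele, averaged 5.36 at 24 h, 6.35 at 48 h and 6.54 at 72 h on thalidomide arrays, and 4.98 at 24 h, 6.30 at 48 h and 6.99 at 72 h on control arrays. It rose by 1.17 under thalidomide (limma adjusted p = 1.4e-06) and by 2.01 in the controls (limma adjusted p = 2.81e-09). The difference between the courses was -0.83 ± 0.16 (SE, limma adjusted p = 0.0366), and it passed in 7 of 20 settings, with values between -0.94 and -0.76. It was not past the threshold without the third thalidomide array of 72 h, among other single arrays. Differences between the courses from 24 to 72 h, here and below, cannot be told apart from the re-analysis tag. Whether the 24 h signals of Airn exceed background was not assessed, and both rises and their difference rest on them.

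Igf2os, the antisense transcript of Igf2, rose by 0.89 under thalidomide and by 1.42 in the controls between 24 and 72 h (limma adjusted p = 6.24e-06 and 2.85e-08). The difference between these courses, -0.52, did not pass (limma adjusted p = 0.0987). Whether the 24 h signals of Igf2os exceed background was not assessed. At 72 h it read lower on every thalidomide array than on any control array, by -0.47 ± 0.10 (SE, limma adjusted p = 0.113). The precursor gene Mir483, which lies within Igf2, changed by -0.38 under thalidomide (limma adjusted p = 0.0246) and by 0.07 in the controls (limma adjusted p = 0.70) over the same interval. The thalidomide call held in 11 of 14 settings, and the difference between the courses, -0.45, did not pass (limma adjusted p = 0.211). Mir483 read higher under thalidomide at 24 h, by 0.39 (limma adjusted p = 0.0559), and differed by -0.06 at 72 h (limma adjusted p = 0.94).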
